A study of Homo sapiens with 20 samples.

Results

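p53 binding was profiled by chromatin immunoprecipitation and sequencing in MLL4 knockout (KO) and wild-type (WT) HCT116 cells, and it is described here from 4 of the 20 libraries of the series, 2 of KO and 2 of WT cells. HCT116 is an established human colorectal carcinoma line that retains an intact p53 gene. Both genotypes were grown in the same medium with serum, and the labels name no agent that activates p53; they do not say whether the KO line is 1 clone or whether the libraries of a genotype came from separate cultures, so the spread between them may be technical. Every p53 peak on chromosomes 1 to 22 was taken, and peaks that overlapped by 1 bp or more in any of the 4 lists were merged, which gave 73099 regions. The question set by the design is how the loss of MLL4 goes with the places where p53 is found.

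p53 is a transcription factor that binds a pair of short half-sites with a CATG-like core and switches on genes of cell cycle arrest, apoptosis, DNA repair and its own feedback control. MLL4, the product of KMT2D, is a histone H3 lysine 4 methyltransferase known mainly for the monomethyl mark (H3K4me1) at enhancers. Trimethylation of the same residue (H3K4me3) marks active promoters, and acetylation of lysine 27 (H3K27ac) marks active promoters and enhancers.

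Letters of the p53 half-site were looked up in RefSeq promoters (GRCh38.p14, 250 bases before to 50 after each listed start). Of 136 genes in the lists of p53 targets, p53 regulators and H3K4 methyltransferase complexes, 111 had such a promoter. The sequences below are those of MDM2, the ubiquitin ligase that degrades p53, whose internal promoter holds its known response elements, and of the listed genes with a match to CATGNNNNNNCATG or to a full pair of half-sites. Each is written 5′ to 3′ on the strand of the gene, with the match in capitals.
MDM2, chr12:68808917-68809016, plus strand: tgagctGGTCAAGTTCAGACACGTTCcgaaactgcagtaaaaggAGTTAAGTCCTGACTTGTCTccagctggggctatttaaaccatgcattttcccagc
DDB2, chr11:47214978-47215003, plus strand: tGAACAAGCCCTGGGCATGTTTggcg
ATR, chr3:142578688-142578713, minus strand: agcctcagCATGGGGGAACATGgcct
TRIAP1, chr12:120446336-120446361, minus strand: gggggaggCATGCACGGACATGaagc
PLXNB2, chr22:50301820-50301919, minus strand: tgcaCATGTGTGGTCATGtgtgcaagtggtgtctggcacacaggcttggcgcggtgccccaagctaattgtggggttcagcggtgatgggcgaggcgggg

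The match in ATR, which encodes a kinase of the DNA damage checkpoint, lay under a peak in both KO lists and in neither WT list. The matches in ATR, TRIAP1 and PLXNB2 fix only the core letters. None of these promoters held a pair of half-sites with no spacer and up to 3 mismatches. These matches are therefore not read as p53 response elements. Pairs with 2 mismatches were found in promoters not shown above, among them those of FAS, GLS2, PCNA and GPX1. The match in DDB2, a damaged-DNA binding protein of nucleotide excision repair, lay under a peak of KO replicate 1 and of WT replicate 1. The match in TRIAP1, which encodes a small p53-inducible inhibitor of apoptosis, lay under a peak in both KO lists and in WT replicate 1. In MDM2 the upstream element, with 2 mismatches over 20 letters, lay 62 and 132 bp from the nearest peak edge in the KO lists and 70 and 51 bp from it in the WT lists, so no list covered it. In PLXNB2, a semaphorin receptor gene, the match lay under a peak in both KO lists and 27 and 47 bp outside the nearest peak of the WT lists.

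Such letters were no more frequent in called than in uncalled promoters. CATGNNNNNNCATG, which reads the same on both strands, was found in 0.279% of 21156 promoters, in 0.122% of the 5729 promoters with a peak in all 4 lists, in 0.196% of the 2040 with a peak in both KO lists and no WT list, in none of the 367 with a peak in both WT lists and no KO list, and in 0.504% of the 7732 with no peak. A pair of half-sites with no spacer and up to 3 mismatches was found in 4.95% of the KO-only, 2.72% of the WT-only, 2.92% of the shared and 6.78% of the uncalled promoters. The windows differ in base composition, with a median G+C share of 63.3% in KO-only, 69.7% in WT-only, 72.7% in shared and 49.7% in uncalled promoters; its part in the match rates was not tested.

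The libraries differed in ways that touch every count. KO lists held 24766 and 61530 peaks and WT lists 36046 and 31953, so KO replicate 2 stands apart; it alone supplied 27954 regions (38.2%) that no other list held. The KO mean was 43148 ± 25996 peaks and the WT mean 33999.5 ± 2894 (SD, n = 2 each), log2 KO over WT 0.20, two-sided exact permutation p = 1, and with 2 libraries against 2 no p can fall below 0.3333. The authors' fold enrichment per peak had medians of 5.62 and 5.08 in KO lists and of 7.55 and 11.98 in WT lists, and reached 37.8 and 43.2 in KO against 172.8 and 441.9 in WT. The files give no read counts, so the depth is unknown; folds are therefore compared only by their order within a list. The antibody to MLL4 gave 257 peaks in the KO library and 55887 in the WT library, 1 library each. Of 5 colon epithelial marker genes 4 had H3K4me3 and H3K27ac in all lists of both genotypes. KRT8 had no H3K4me3 region common to all 4 lists. Of 10 marker genes of other tissues none had both marks in all lists.

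Regions were sorted by the lists that called them. Peaks of all 4 lists met in 14204 regions (19.4% of 73099), which are named shared. A further 3559 regions (4.87%) were called in both KO lists and in no WT list, and are named KO-only here; 3006 regions (4.11%) were called in both WT lists and in no KO list, and are named WT-only. The remaining regions were called in 1 list, in 3, or in 1 of each genotype.

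The KO-only and WT-only regions lay in different chromatin. A region is called a promoter where it comes within 1 kb of the start of a protein-coding gene, and as having H3K4me3 where it overlaps a region called in all 4 H3K4me3 lists. H3K4me3 was present at 58.2% of the KO-only regions (95% Wilson interval 56.6 to 59.8), at 2.56% of the WT-only regions (2.05 to 3.19) and at 57.0% of the shared regions (56.1 to 57.8). These intervals cover counting error over regions only. Promoters made up 44.1% of KO-only, 11.9% of WT-only and 57.7% of shared regions.
The acetyl mark showed the same split. H3K27ac peaks of both KO libraries covered 73.9% of the KO-only and 3.69% of the WT-only regions, while H3K27ac peaks of both WT libraries covered 94.5% of the KO-only and 41.6% of the WT-only regions. At shared regions these shares were 63.1% for the KO and 93.0% for the WT libraries. No histone peak of any library touched 1.66% of the KO-only, 32.1% of the WT-only and 1.42% of the shared regions. MLL4 peaks of the WT library were less contrasted, at 29.2% of KO-only, 21.0% of WT-only and 52.8% of shared regions.
The KO-only and WT-only shares lean on both KO libraries. Without KO replicate 2, 6433 regions were in KO replicate 1 and no WT list, 43.0% of them with H3K4me3, and 10119 were in both WT lists and not in KO replicate 1, 6.18% of them with H3K4me3. Without KO replicate 1, 31927 regions were in KO replicate 2 and no WT list, and 16.0% of those had H3K4me3, against 3.56% of 3453 WT-only regions. The order of the MLL4 shares reversed, at 21.75% of KO-only and 26.7% of WT-only regions without KO replicate 2 and at 12.8% and 21.98% without KO replicate 1. Promoter shares were nearly level without KO replicate 1, at 13.6% of KO-only and 12.8% of WT-only regions. H3K27ac and the absence of any histone peak kept their order with each of the 4 libraries left out, with smaller gaps without either KO library. When summits within 100 bp were merged in place of whole peaks, 25.01% of 6086 WT-only summit groups had H3K4me3.

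**Figure D1:**
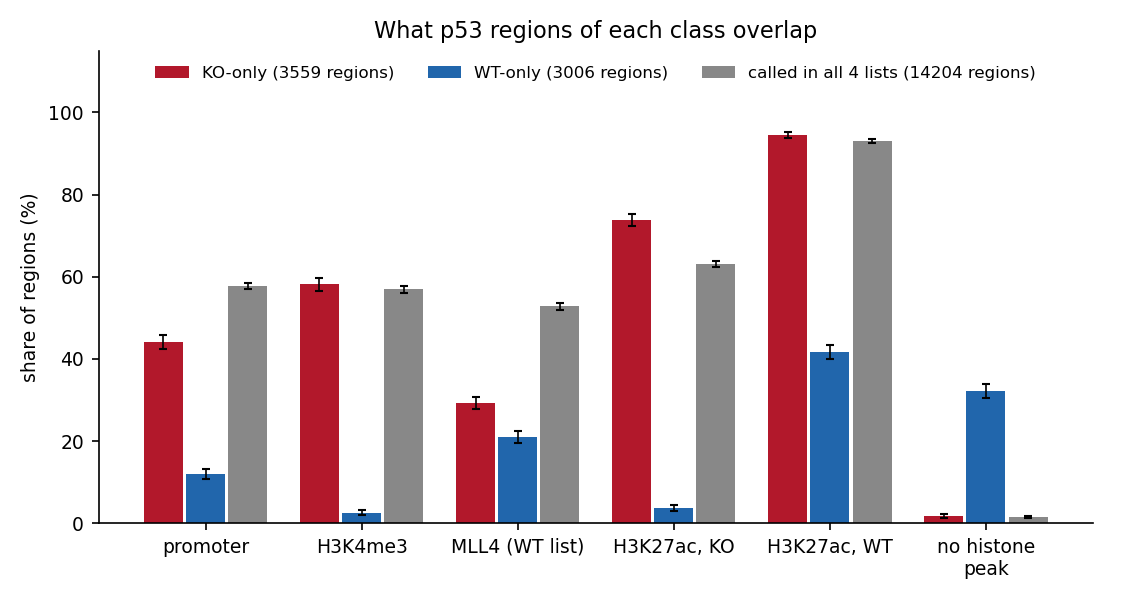
Share of p53 regions (percent, vertical axis) that overlap each feature, for regions called in both KO and no WT list (red), both WT and no KO list (blue) and all 4 lists (grey); bars carry 95% Wilson intervals over regions. H3K4me3 is at 58.2% of KO-only and 2.56% of WT-only regions, and 32.1% of WT-only regions touch no histone peak.

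Read from each genotype's own regions, calls missing from the other genotype were counted with and without H3K4me3. Of 20196 regions called in both KO lists, 17.6% were in neither WT list, and that share was 17.9% with H3K4me3 and 17.3% without. Of 24498 regions called in both WT lists, 12.3% were in neither KO list, which was 0.887% of the 8680 with H3K4me3 and 18.5% of the 15818 without. Without regard to fold, the mark thus split the regions of WT cells and not those of KO cells.
Within bins of equal place by fold it split both, in opposite directions. In the lowest of 3 equal bins, 49.2% of the both-KO regions with H3K4me3 and 27.3% of those without it were absent from both WT lists, and in the highest bin 4.58% and 1.33% were. In the lowest bin of the both-WT regions, 2.38% of those with H3K4me3 and 32.7% of those without it were absent from both KO lists, and in the highest bin 0 of 3142 and 4.42% were. Without regard to fold, MLL4 peaks of the WT library went with fewer missing calls. This count was not split into bins by fold. Missing calls fell from the lowest to the highest bin. Among shared regions, MLL4 peaks were more common at the highest than at the lowest folds of every list. The part of fold in the MLL4 count was not tested. Among both-WT regions without H3K4me3, 11.5% of those with an MLL4 peak and 21.98% of those with none were in neither KO list; among both-KO regions without it, 11.01% and 21.2% were in neither WT list.

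The shared regions were ordered by fold in a way that the libraries of a genotype had in common and the genotypes hardly did. Over the 14204 shared regions, Spearman's rho of the folds was 0.58 between the KO lists and 0.62 between the WT lists, and 0.12 to 0.19 across genotypes. Libraries of 1 genotype were called against the same input, which they share beside their cells, and rho is given as a description over regions. Of the 2811 highest regions of KO replicate 1 (its top 20%), 55.0% were in the top 20% of KO replicate 2, and 28.1% and 25.6% were in that of the WT lists.

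H3K4me3 followed the order in KO cells. In the top 20% by fold, 92.3% and 90.7% of the regions had H3K4me3 in the KO lists, against 46.5% and 46.9% in the WT lists. In the bottom 20% the shares were 30.3% and 23.9% in the KO lists and 67.6% and 59.8% in the WT lists. The top 20% of the KO lists thus holds nearly pure H3K4me3 regions while that of the WT lists holds fewer of them than the 57.0% of all shared regions. The difference in the top 20% was 44.8 percentage points (KO 91.5 ± 1.15, WT 46.7 ± 0.279, SD, n = 2 each, exact permutation p = 0.3333, the smallest that this design allows), and it was 44.0 to 45.6 points with any 1 library left out. Both lists of a genotype were called against the same input, so the SDs and this range do not measure independent replication. Promoters behaved alike with a smaller gap, at 79.8% and 78.7% of the top regions in KO and 55.5% and 59.8% of those in WT. MLL4 peaks of the WT library were at 67.7% and 69.9% of the top regions in KO and at 61.6% and 61.4% of those in WT.

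**Figure D2:**
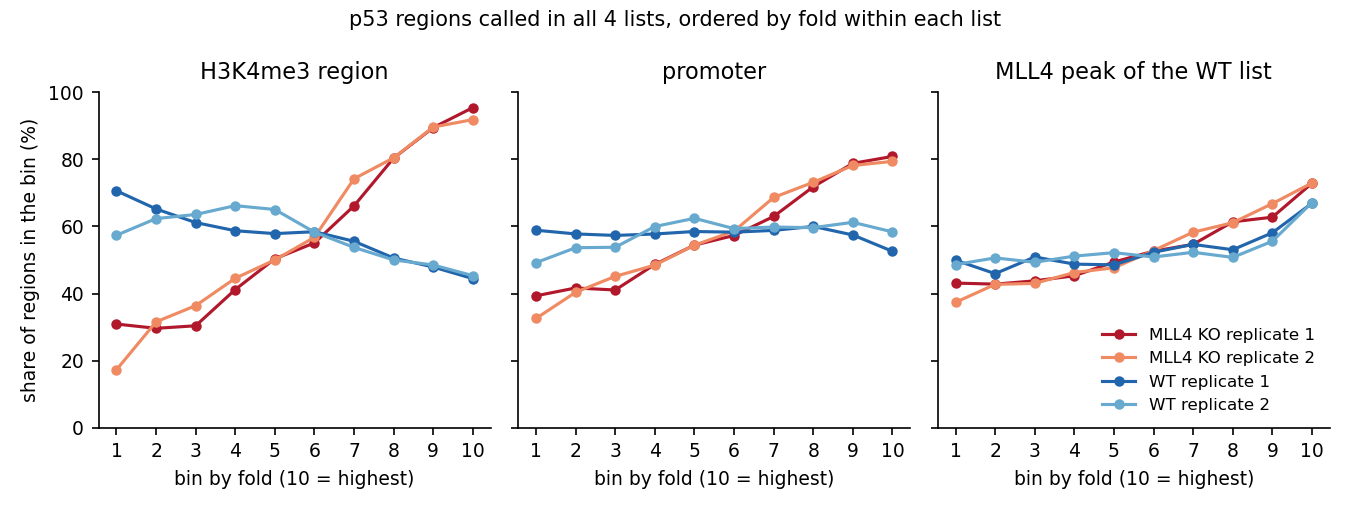
Share of regions (percent) with H3K4me3, at a promoter, or with an MLL4 peak in each of 10 equal bins of the 14204 shared regions, ordered by fold within each list (bin 10 is the highest); 1 line per library. The KO lines climb steeply for H3K4me3, to 95.3% and 91.8% in the highest bin, where the WT lines stand at 44.4% and 45.3%.

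Counted region by region, 4129 of the 14204 shared regions (29.1%) had a lower percentile by fold in both KO lists than in both WT lists, and 4055 (28.5%) a higher one. Of the 8091 shared regions with H3K4me3, 44.6% were higher in KO and 12.6% lower. Of the 6113 without it, 7.26% were higher in KO and 50.9% lower. H3K4me3 went with the direction at promoters and at distal regions alike. Promoters outside the regions called in all 4 H3K4me3 lists (1594) may still hold the mark in fewer lists. They were lower in KO in 64.7% of cases and higher in 3.76%. Distal regions with H3K4me3 (1489) were instead higher in KO in 44.1% and lower in 14.0%.
Distal regions without H3K4me3 differed little by MLL4 peak, since 45.4% of the 1913 with one and 46.5% of the 2606 with none were lower in KO. They differed more by H3K27ac. Of these regions, 31.9% of the 963 with H3K27ac in both KO libraries were lower in KO, against 49.3% of the 2968 with H3K27ac in both WT libraries but not in both KO libraries. The promoters' median G+C share was close, at 70.7% in regions ranked higher in KO and 71.3% in those ranked lower; 99.1% of those promoters ranked higher and 48.6% of those ranked lower had H3K4me3.

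**Figure D3:**
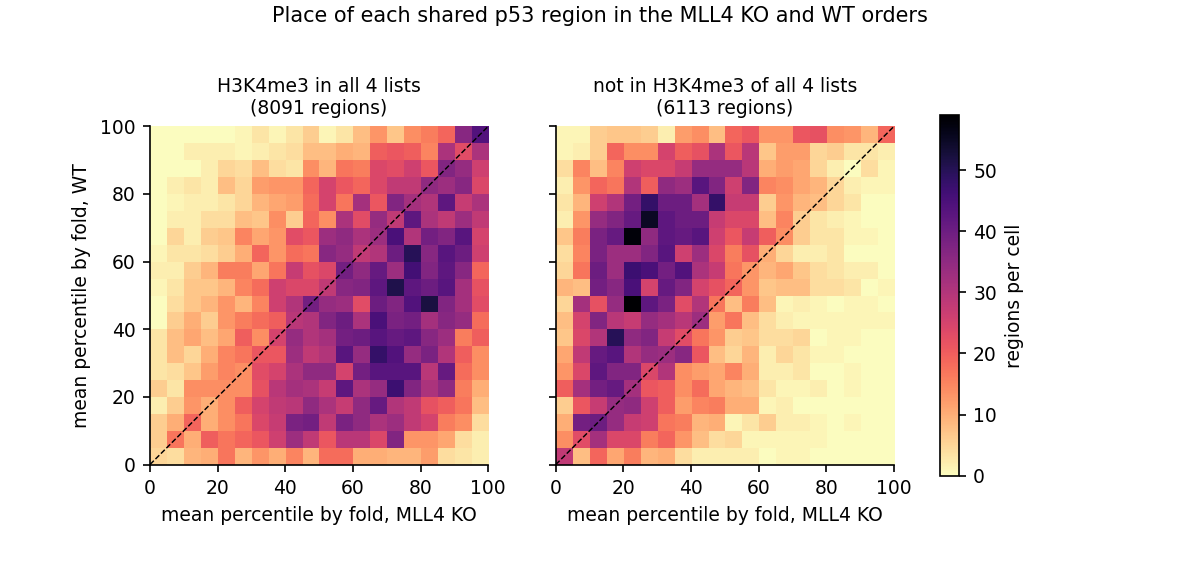
Mean percentile by fold in the KO lists (horizontal) against the WT lists (vertical) for shared regions with H3K4me3 in all 4 lists (left, 8091 regions) and the others (right, 6113 regions); darker cells hold more regions and the dashed line marks equal places. The left cloud lies mostly below the line (44.6% higher in KO), and the right cloud mostly above it (50.9% lower in KO).

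The regions with the widest gaps between genotypes show this at single genes. DIAPH1, which encodes a formin that nucleates actin filaments, had a promoter region at chr5:141618542-141619365 with folds of 13.8 and 16.5 in KO and 5.77 and 8.27 in WT. Its percentiles were 98.5 and 98.4 in KO and 7.94 and 12.9 in WT. At EIF4A1, a helicase of translation initiation, the region chr17:7572753-7574072 stood at percentiles of 95.5 and 94.7 in KO and 0.774 and 10.6 in WT. The groups do not overlap at either gene, which the choice by gap fixes. The other regions that stood higher in KO were at the starts of ZBTB45, MAIP1, MIEN1 and MAN2C1, inside the pseudogene SLC35E2A and 9110 bp from the start of CXXC5, which encodes a CpG-binding zinc finger protein; all 8 had H3K4me3 and H3K27ac in both genotypes.
The opposite set was made of other genes. EMX2, a homeobox gene of forebrain and urogenital development, had a region that ended 37 bp before a listed start (chr10:117541826-117542709) with folds of 2.78 and 4.18 in KO and 12.6 and 29.6 in WT. Its percentiles were 0.194 and 2.33 in KO and 83.4 and 90.5 in WT. SORCS3, which encodes a neuronal sorting receptor, had folds of 4.59 and 5.08 in KO and 15.7 and 39.3 in WT at its start. A region inside MPO, the myeloperoxidase gene of granulocytes, and one inside SOX8, a gene of neural crest development, also stood low in KO. Of these 8 regions the one at SOX8 had H3K4me3, and 4 were 67820 bp or more from the nearest coding start. These 4 include 2 near TPTE beside the centromere of chromosome 21, a repeat-rich stretch where read placement is uncertain.

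Of the 10 KO-only regions of highest fold, 7 were at gene starts. ATR had folds of 11.5 and 14.6 in KO at chr3:142578422-142579097 and no WT call there. SAR1B, a GTPase of vesicle export from the endoplasmic reticulum, had folds of 14.3 and 11.4. The others lay at the starts of GTF2H2C, TAF15, PAFAH1B3, MTF2 and C4orf46, over the U3 small nucleolar RNA genes SNORD3A and SNORD3D, and 162243 bp from the start of TBL1XR1; 9 of these 10 had H3K4me3. GTF2H2C, SNORD3A and SNORD3D have near-identical copies, so their calls are uncertain.
The WT-only regions of highest fold had a different make-up. None of the 10 had H3K4me3. Of these, 6 were in the short arm of chromosome 21, over ribosomal RNA repeats or pseudogenes, where copies cannot be told apart. Outside it the highest was inside SULT4A1, a brain sulfotransferase gene (chr22:43834170-43835353), with folds of 18.1 and 31.7 in WT. Next came a region over the pseudogene GUSBP6 on chromosome 7, 54579 bp from the start of ZNF727, with folds of 17.4 and 19.03 in WT. The region chr19:37284021-37284480 near ZNF875 had 16.6 and 34.5 in WT. Among the 10 regions with the best mean rank over the 4 lists was one 50937 bp from FCGR2A, an Fc receptor gene, with folds of 37.8 and 40.0 in KO and 38.3 and 48.1 in WT. The 10 are not given in full here. Of the others reported, 3 were over ribosomal RNA genes of chromosome 21 and 1 was over pseudogenes of chromosome 7. On chromosome 2, 2 were 59719 and 65639 bp from the nearest coding start, and 2 more were at the starts of LOC128966684 and C8orf82.

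Promoter peaks were common in both genotypes at the genes that p53 is known to activate. Whether these peaks cover p53 response elements was not tested beyond the promoter letters given above. The lists of 107 targets came from background knowledge with earlier results of these data known. A promoter peak in all 4 lists was found at 71 of the 107 (66.4%), against 44.6% of all 19126 protein-coding genes; 93 of the 107 had H3K4me3 at the promoter, and among H3K4me3 promoters the shares were 67.7% of targets and 61.0% of all genes. A promoter called in both KO lists and no WT list was found at 9 targets (8.41%, against 7.78% of all genes), and one called in both WT lists and no KO list at 1 target (0.935%, against 1.1%). Both shares are near those of all genes. Among H3K4me3 promoters the KO-only shares were 9.68% of targets and 12.15% of all genes. The WT-only shares there were 1.075% (1 target) and 0.179%. A KO-only region in the gene or within 10 kb was found at 22 targets (20.6%, against 20.9%), and a WT-only one at 11 (10.3%, against 10.5%).

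CDKN1A, the cyclin-dependent kinase inhibitor p21 and the classic effector of p53 arrest, had 1 region within 10 kb, over a listed start at chr6:36678357-36680730. Its folds were 5.94 and 11.4 in KO and 7.72 and 10.3 in WT. The percentiles were 38.8 and 83.6 in KO and 29.8 and 20.03 in WT, so the KO lists stood higher without overlap but KO replicate 1 only slightly. The highest summits were 90 and 1616 bp after a listed start in the KO lists, and 1707 bp after and 118 bp before it in the WT lists. They thus fell at different places of a region 2374 bp wide, also between lists of 1 genotype.
MDM2 had its region at the upstream promoter, chr12:68807843-68808872. Its folds were 8.10 and 11.4 in KO and 8.96 and 10.4 in WT, at percentiles of 72.1 and 82.2 in KO and 42.0 and 20.2 in WT. The KO lists again stood higher.

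Where a target promoter was shared, it stood higher in the KO order than in the WT order more often than lower. A gene's percentile in a list is here the highest among its shared promoter regions, so the lists can draw on different regions of a gene. Of the 70 targets with a promoter that could be ranked, 34 had a higher percentile in both KO lists than in both WT lists (48.6%, against 38.7% of 8390 ranked genes). A lower one was found at 12 (17.1%, against 21.1%). Among H3K4me3 promoters these shares were 54.8% and 8.06% for 62 targets, and 45.3% and 12.6% for all genes.
The arrest genes were the most one-sided of the lists, with 7 of 8 higher in KO, none lower and 1 overlapping. Among all genes with an H3K4me3 promoter 45.3% were higher, and with 8 genes nothing particular to the list is read. Apart from CDKN1A, the 7 included GADD45A, a stress sensor, PLK3, a stress-activated kinase, and TOB1, an antiproliferative protein. GADD45A had folds of 7.92 and 11.9 in KO and 6.57 and 16.9 in WT, at percentiles of 71.1 and 86.1 in KO and 14.6 and 45.8 in WT. In apoptosis, 8 of 13 were higher and 2 lower. APAF1, the scaffold of the apoptosome, stood at percentiles of 43.9 and 72.7 in KO and 1.92 and 9.25 in WT, and BAX, which permeabilises mitochondria, at 72.4 and 42.6 in KO and 21.9 and 25.5 in WT. PHLDA3, an inhibitor of AKT signalling, ran the other way. It had folds of 9.72 and 8.25 in KO and 21.9 and 40.2 in WT, at percentiles of 87.7 and 51.3 in KO and 99.5 and 98.8 in WT.
In metabolism and stress 6 of 14 were higher and 3 lower. GPX1, a glutathione peroxidase, had percentiles of 81.0 and 82.2 in KO and 0.989 and 9.25 in WT. TP53INP1, a stress-induced p53 cofactor, had folds of 6.12 and 8.68 in KO and 21.1 and 41.6 in WT, and stood at percentiles of 41.3 and 55.5 in KO and 99.5 and 99.1 in WT. Both promoters had H3K4me3. SCO2, an assembly factor of cytochrome c oxidase, stood near the top of every list, at 99.2 and 97.2 in KO and 98.6 and 97.0 in WT. DNA repair had 1 of 5 higher and none lower, feedback genes 2 of 4 higher and 1 lower, and the remaining targets 10 of 26 higher and 6 lower.

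**Figure D4:**
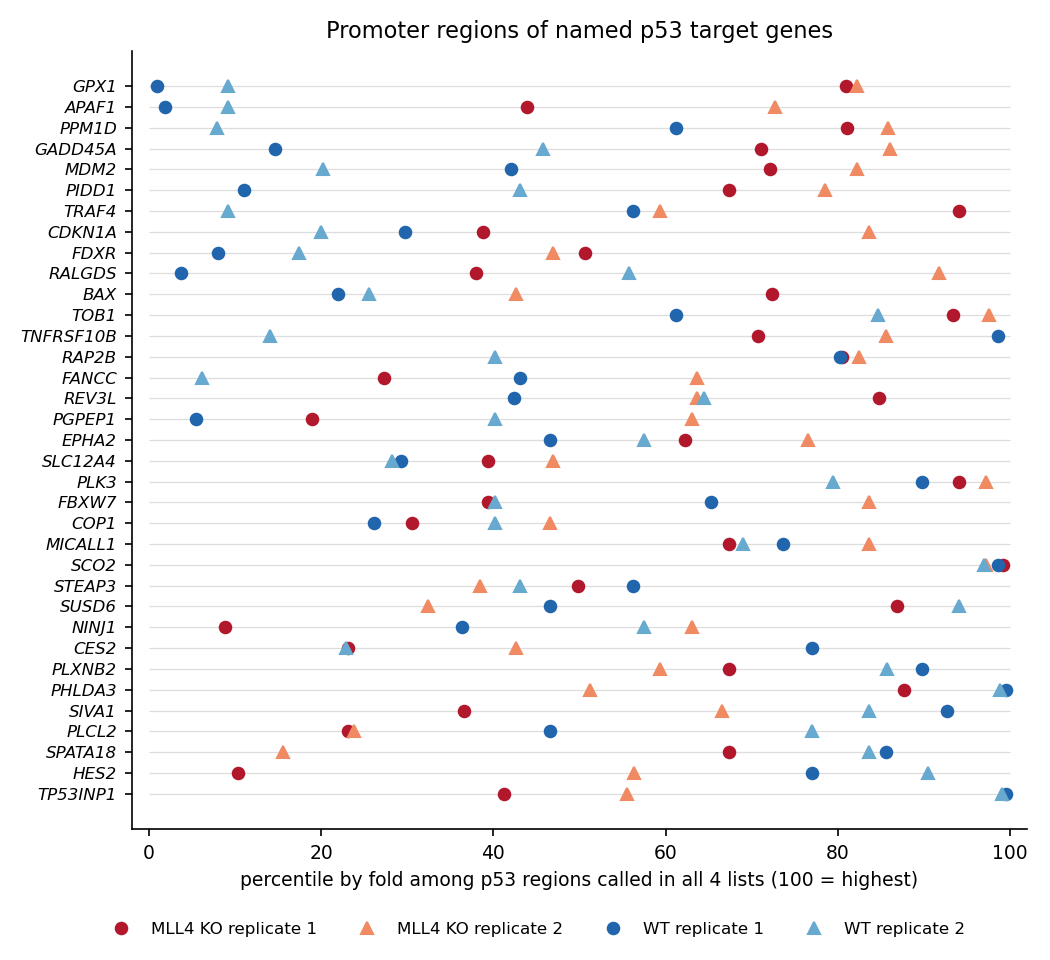
Percentile by fold (horizontal, 100 is the highest among shared regions) of the promoter region of each named p53 target called in all 4 lists, with KO replicates in red tones and WT replicates in blue tones, sorted by the mean KO minus mean WT percentile. GPX1 stands at 81.0 and 82.2 in KO and at 0.989 and 9.25 in WT at the top, and TP53INP1 at 41.3 and 55.5 in KO and 99.5 and 99.1 in WT at the bottom. Each gene is shown by 1 region, that of best mean rank, so values can differ from the highest promoter percentiles counted in the text.

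The 9 target promoters called only in KO were those of BTG2 and SFN in cell cycle arrest, CCNG1 in feedback, TNFRSF10D in apoptosis, ERCC5 and RRM2B in DNA repair, GDF15 in stress, and KITLG and ZNF79. BTG2, an antiproliferative gene, had folds of 7.08 and 7.62 in KO at chr1:203305110-203306311. ERCC5, an endonuclease of nucleotide excision repair, had 9.20 and 5.65 in KO, and SFN, which encodes the checkpoint protein 14-3-3 sigma, had 4.08 and 4.88. No WT peak met any of these regions, and all 9 had H3K4me3. GDF15, a stress cytokine, had a second region called in all 4 lists 1551 bp from its start, with folds of 11.2 and 12.1 in KO and 6.90 and 12.3 in WT. ISCU, an iron-sulfur cluster scaffold, was the single target with a WT-only promoter region, with folds of 3.77 and 4.23 in WT.
Targets also had WT-only regions away from their listed starts. STEAP3, a metalloreductase, had one 23928 bp from its start with folds of 12.3 and 7.33 in WT. FANCC, of the Fanconi anaemia repair pathway, had one 24596 bp away with 9.89 and 19.2. PRDM1, a transcriptional repressor, had one at chr6:105992478-105992775 with 7.55 and 15.5 in WT, just beside a region called in all 4 lists. The WT-only region lay over the annotated 5′ end of PRDM1, whose nearest listed start was 93561 bp away. BBC3, the pro-apoptotic protein PUMA, had 4 shared regions and none within 1 kb of its start; the nearest, 1150 bp away, had folds of 6.53 and 12.2 in KO and 20.02 and 34.1 in WT.

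Among the 13 regulators of p53, the promoters of ATR, CHEK1, CHEK2 and KAT5 were called in both KO lists and in no WT list. That was 30.8%, against 7.78% of all genes and 12.15% of genes with an H3K4me3 promoter. No promoter of the 13 was WT-only. CHEK1 and CHEK2 encode the effector kinases of the DNA damage checkpoint and KAT5 an acetyltransferase that modifies p53. Their folds were 7.78 and 8.68 at CHEK1, 4.92 and 3.799 at CHEK2, and 7.15 and 6.35 at KAT5 in KO. With 13 genes the share is a count of 4, and nothing particular to the list is read from it.
The p53 relative TP73 had 3 WT-only regions inside the gene, with folds of 4.78 to 7.55 in WT replicate 1 and 4.23 to 7.71 in WT replicate 2, beside a promoter region in all 4 lists at percentiles of 97.4 and 90.4 in KO and 89.7 and 93.1 in WT. TP63 had a WT-only region 34813 bp from a start, with folds of 7.44 and 21.1. USP7, the deubiquitinase of MDM2, had a WT-only region over its start with folds of 8.31 and 9.72 in WT, and a shared one 371 bp away.
Of the 15 genes of the H3K4 methyltransferase complexes, 9 had a ranked promoter, with 7 higher in KO and none lower. Over all ranked genes 38.7% were higher and 21.1% lower, and among H3K4me3 promoters 45.3% and 12.6%; with 9 genes nothing particular to the list is read from the count. KMT2D, the gene of MLL4, had folds of 12.2 and 14.6 in KO and 9.06 and 17.6 in WT at chr12:49059784-49061083, at percentiles of 96.6 and 96.1 in KO and 46.6 and 48.6 in WT. KMT2A, the gene of MLL1, had folds of 24.1 and 28.1 in KO and 15.2 and 28.2 in WT, at percentiles of 99.95 and 99.91 in KO and 95.6 and 87.5 in WT. The promoters of ASH2L and PAGR1, both subunits of such complexes, were KO-only (2 of 15, 13.3%). That share was 7.78% of all genes and 12.15% of genes with an H3K4me3 promoter, so nothing particular to the list is read. All of the promoters named here had H3K4me3.

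Summit positions were compared next. Over the 10841 shared regions with a single peak in each list, summits of the KO lists lay a median of 101 bp apart and those of the WT lists 55 bp apart. Across genotypes the median was 83 to 98 bp, which is no more than the distance between the KO replicates. At promoters, the highest summit was a median of 114 and 124 bp after the gene start in KO and 164 and 138 bp after it in WT. It fell before the start in 33.0% and 32.0% of promoter regions in KO and in 27.1% and 27.5% in WT (difference 5.19 percentage points, n = 2 each, exact permutation p = 0.3333, the smallest possible).

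**Figure D5:**
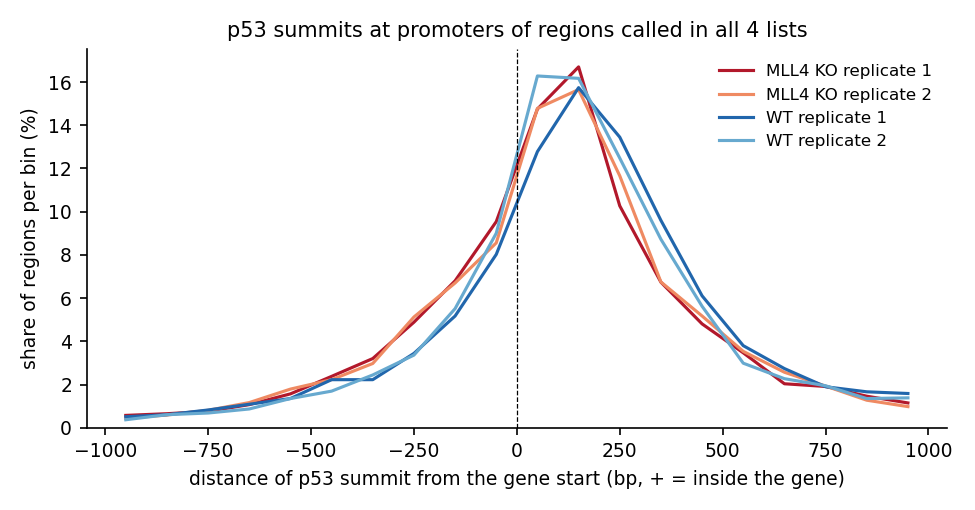
Position of the highest p53 summit relative to the gene start (bp, positive inside the gene) in promoter regions called in all 4 lists, as the share of regions per bin (percent), 1 line per library. The median is 114 and 124 bp in the KO libraries and 164 and 138 bp in the WT libraries.

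The same count was made in the lists of MLL1, a methyltransferase of H3K4me3 promoters. Of all peaks in the top 20% of a list, 98.8% of the KO and 97.8% of the WT MLL1 list overlapped H3K4me3 (1 library each), and so did 88.4% and 65.2% of the p53 KO lists and 36.4% and 38.9% of the p53 WT lists. By chromosome, the mean share of peaks differed most between genotypes on chromosome 17, with 9.30% and 7.92% of KO peaks and 6.85% and 6.19% of WT peaks, and with 435 KO-only and 93 WT-only regions. Copy number was not measured here, and its part in this was not tested.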

How the data were processed

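Chromatin from cells fixed with 1% paraformaldehyde for 5 min was sonicated for 15 min, per the labels' protocols. The submitters' processing notes name MACS2 2.1.1 and hg38; the aligner and read filters are not given in the sources used. Each list was called for 1 library alone, against the input of its own genotype going by the peak names, which per the deposited files give fold enrichment over background (a ratio), −log10 p-value, −log10 q-value and a whole-number score that is 10 times −log10 q. Read depth is not in the lists. No value was rescaled.

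Peaks on chromosomes 1 to 22 were merged on an overlap of 1 bp, with Python 3.11.15, pandas 2.3.3 and SciPy 1.17.1. A region's fold in a list is that of its highest peak, and its percentile is its place by fold among the 14204 regions called in all 4 lists. For counts of genes, a gene takes in each list the highest percentile among its promoter regions called in all 4 lists. Promoters are regions within 1 kb of 21156 listed RefSeq starts of 15101 genes, or of either gene end for 4025 genes with no listed start, 715 of them all those of chromosome 8. Merging and overlap steps were tested on simulated peaks.

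Libraries were compared by two-sided exact permutation tests, 2 KO against 2 WT; class counts, ranks and gene lists are descriptions with no test. The text names regions by best mean rank (10), by highest lower-of-2 fold among genotype-only regions (10 each), by widest rank gap (8 each way), up to 5 members of each list by highest fold, list members with a genotype-only region, and CDKN1A, MDM2, KMT2D and KMT2A, with a few that the rule names not reported here; TRIAP1 was added after its promoter letters were seen. The members and lists were chosen with earlier results of these data known. Input values were not used. Alternatives tried were a −log10 q of at least 5, lists of equal length, other promoter windows, summit-based overlap and merging, replicate pairing, ranking by −log10 q and leaving out each library.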

Additional observations from a re-analysis of the deposited data

How the results depend on the processing

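The top-20% and rank-correlation results and the feature shares of genotype-only regions, with every alternative run on them, were chosen after seeing the data. No setting brought a comparison of libraries past 0.05, which 2 against 2 cannot reach. The H3K4me3 gap of the top 20% stayed between 37.0 and 49.8 points under ranking by −log10 q, single-peak regions, −log10 q of at least 5, equal lists and the top 10% (21.6 points for promoters), and 44.0 to 45.6 points with 1 library left out. Within-genotype rank correlation exceeded cross-genotype correlation by 0.445 to 0.469 in every setting tried.
With −log10 q of at least 5, log2 peak number was -0.41, the MLL4 share difference 5.93 points (reported value -1.71, so the sign turned), KO-only regions 1615 with 82.8% H3K4me3, and WT-only regions 5364 with 4.03%. Lists of equal length (24766 peaks) gave an MLL4 difference of 1.77 points, also turned, and H3K4me3 at 76.1% of KO-only and 3.23% of WT-only regions. Merging summits gave KO-only regions with 63.2% H3K4me3 and 6086 WT-only regions with 25.01%. Requiring −log10 q of at least 5 for presence gave 1085 KO-only regions with 82.6%.
Leaving out 1 library, log2 peak number ran from -0.45 (without KO replicate 2) to 0.86 (without KO replicate 1). The promoter difference (2.12 points as reported) ran from -8.68 to 12.9, the MLL4 difference (-1.71) from -8.56 to 5.13 and the H3K4me3 difference (7.09) from -5.79 to 19.98 points, with KO replicate 1 and KO replicate 2 left out at the ends of each. KO-only regions ran from 4566 to 31927 with 16.0% to 60.7% H3K4me3, and WT-only regions from 3453 to 10119 with 2.56% to 6.18%. The MLL4 share of KO-only minus WT-only regions (8.29 points) ran from -9.15 to 16.5, below 0 without either KO library. The cause of these shifts was not tested.
The replicate block, pairing libraries by number, gave the same differences with p of 0.5 or 1 (log2 0.20 for peak number, p = 1, exact sign-flip test; 44.8 points for the top 20%, p = 0.5). Nothing in the labels says the numbers pair samples, and the deviations of log2 fold of same-numbered libraries correlated at 0.025 over 14204 regions.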

Other observations

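Chromosome X was outside the merged regions and enters no comparison. The p53 lists held 206 and 718 peaks there in KO and 479 and 678 in WT.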
